A study of Mus musculus with 11 samples.

Results

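Livers of obese mice that expressed wild-type FXR were compared with livers of lean mice that expressed the same protein. The comparison takes the 3 arrays labelled obese with the construct FXR-WT and the 2 arrays labelled lean with FXR-WT, which is 5 of the 11 arrays of the study. The obese FXR-WT group and the lean FXR-WT group were both male C57BL/6J mice with an age of 8 weeks in the labels. Both carried FXR-WT from an adenovirus, and both were given the FXR agonist GW4064 at 30 mg/kg in corn oil a week after infection, the night before collection. The obese arrays have titles that begin with HFD and the lean ones with ND, and the length of feeding is not given in the labels. Read as diets, these titles mean that diet and obesity differ together and cannot be told apart. The other 6 arrays came from obese mice with FXR-K217R (3 arrays) and lean mice with FXR-K217Q (3 arrays), treated alike, in which 1 lysine of FXR is replaced by arginine or by glutamine. Because both FXR-WT groups carry extra FXR and agonist, the comparison describes obesity with its diet on that background and not in untreated liver. The labels do not say that replicates came from different animals; the p-values cover the spread between arrays, which may be technical.

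FXR is a nuclear receptor for bile acids, and in liver it represses bile acid synthesis and tunes lipid and glucose metabolism. Cholesterol synthesis is driven by the transcription factor SREBP-2, which is held back when sterols are plentiful in the endoplasmic reticulum. Fat that a hepatocyte stores is wrapped in droplets coated by perilipins and CIDE proteins, and fatty acids that reach the nucleus activate PPAR-alpha, which turns on fatty acid oxidation, ketone production and the hormone FGF21.

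Values are normalized log2 intensities, so 1 unit is a doubling, and a change is the mean of obese FXR-WT minus the mean of lean FXR-WT, given with its standard error. Of 15469 genes tested, 185 passed a 5% false discovery rate in limma (1.2%), of which 106 were higher in obese FXR-WT livers (0.685%) and 79 lower (0.511%). Among the 185, 126 changed by more than 1 on the log2 scale, 75 of them upward and 51 downward. The obese and lean arrays did not overlap for any of the 185, but they also did not overlap for 33% of all genes tested. The median change of all genes was -0.00068. Between 18263 and 19500 of 45281 probes were detected per array, with a mean of 41.9 to 44.0 beads per probe. Of hepatocyte markers, Apoa1, the main protein of high-density lipoprotein, read 14.67, 14.91 and 14.90 in obese FXR-WT livers, against 14.91 and 14.74 in lean FXR-WT livers. The nuclear receptor Hnf4a changed by -0.22 ± 0.14 (adjusted p = 0.556), and of 13 hepatocyte genes tested only Tat passed. Of the 13 changes 9 were negative and 4 positive, with a median of -0.016. The summed linear intensity of these genes lay between 152912 and 164599 in the obese FXR-WT arrays, against 165300 and 170630 in the lean ones. These sums do not overlap.

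One array stood apart from the rest by principal components. By a clock index it lay below the other obese arrays and nearer to the lean ones. In a principal component analysis of the 5 arrays the first component (49.1% of the variance) separated obese from lean, and the second (25.6%) separated obese FXR-WT replicate 1, at 33.7, from the other 4 arrays, which lay between -13.7 and -4.97. A clock index (the level of Arntl and Clock, averaged, taken from the average of Dbp, Nr1d1, Nr1d2 and Per3) was -0.85, 1.30 and 1.55 in the obese FXR-WT arrays, against -0.49 and -0.27 in the lean ones. Without obese FXR-WT replicate 1, 175 genes passed, 128 of them among the 185.

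The largest coordinated difference among the 40 gene lists described was in cholesterol synthesis. Of 18 genes of the pathway tested, 14 fell in obese FXR-WT livers, 0 rose, and all 18 had negative changes, with a median of -2.42 on the log2 scale. The pathway list has 21 members, of which 19 were on the array. Summed linear intensities of the 18 genes lay between 16325 and 21006 in the obese FXR-WT arrays, against 67878 and 77679 in the lean ones. These sums do not overlap. In whole liver a change in transcript per cell and a change in the number of cells that carry it cannot be told apart.

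The first steps of the pathway build mevalonate and turn it into isoprene units. Acat2, which condenses acetyl-CoA to acetoacetyl-CoA, read 9.99, 9.87 and 10.21 in obese FXR-WT livers, against 11.48 and 11.40 in lean FXR-WT livers, a change of -1.42 ± 0.14 (adjusted p = 0.00101). The kinase Pmvk changed by -2.08 ± 0.24 and the decarboxylase Mvd by -3.30 ± 0.41. Mvk, the kinase before them, was detected on 0 of 3 obese arrays and on both lean arrays, at 6.05 and 5.39 in lean livers, and was at least 1.43-fold lower without passing (adjusted p = 0.0518). Idi1, which isomerises isopentenyl pyrophosphate, read 5.65, 6.06 and 6.44 in obese FXR-WT livers, against 9.67 and 10.06 in lean FXR-WT livers, which is 14.1-fold lower (adjusted p = 0.000212). Fdps, which makes farnesyl pyrophosphate, was near the top of the scale in lean FXR-WT livers. It read 10.32, 10.26 and 10.73 in obese FXR-WT livers, against 14.02 and 14.12 in lean FXR-WT livers, which is 12.4-fold lower (adjusted p = 0.000111), and its other probe changed by -2.37.

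The later steps make squalene into lanosterol and then trim it to cholesterol. Sqle, the squalene epoxidase, had the largest fall of any gene tested. It read 7.91, 7.27 and 7.86 in obese FXR-WT livers, against 12.14 and 12.43 in lean FXR-WT livers, a change of -4.60 ± 0.40, or 24.3-fold lower (adjusted p = 0.000399). Its other probe changed by -4.71. Lss, which closes squalene epoxide into lanosterol, was 9.72-fold lower (adjusted p = 0.000724). Cyp51, the lanosterol demethylase, read 7.73, 7.35 and 8.10 in obese FXR-WT livers, against 11.39 and 11.75 in lean FXR-WT livers, which is 14.4-fold lower (adjusted p = 0.000111). Sc4mol (now Msmo1) and Nsdhl, which together remove the methyl groups of the sterol ring, changed by -3.49 ± 0.40 and -3.40 ± 0.27. The 4 probes of Nsdhl gave -3.54, -3.54, -3.40 and -3.23. Hsd17b7 changed by -1.95 ± 0.27 and the reductase Tm7sf2 by -1.94 ± 0.27. Dhcr7, the last reductase, read 8.21, 8.62 and 8.69 in obese FXR-WT livers, against 10.72 and 10.83 in lean FXR-WT livers, which is 4.81-fold lower (adjusted p = 9.59e-05). Of the 4 members that did not pass, Ebp and Sc5d changed by -0.81 and -0.76 (adjusted p = 0.0784 and 0.0948), and their obese and lean arrays did not overlap either.

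**Figure D1:**
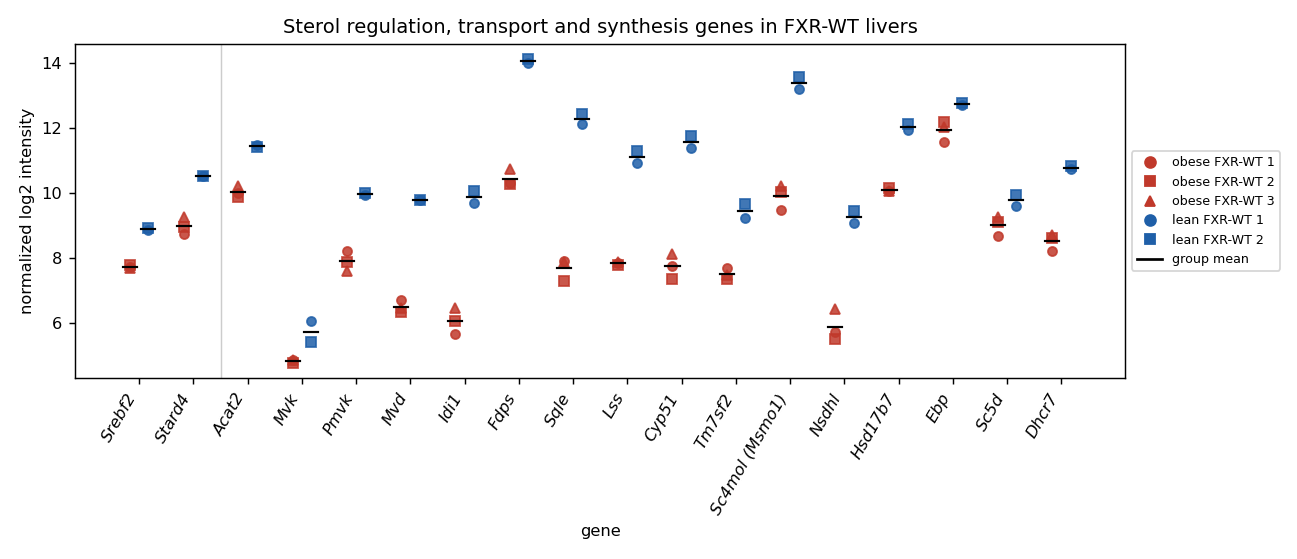
Normalized log2 intensity of the sterol regulation and transport genes Srebf2 and Stard4 (left of the line) and 16 cholesterol synthesis genes in the order of the pathway, with 1 point per array in obese FXR-WT livers (red, 3 arrays) and lean FXR-WT livers (blue, 2 arrays) and a bar at each group mean. Every obese array lies below both lean arrays for each of the 18 genes shown, from a change of -0.76 for Sc5d to -4.60 for Sqle.

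Genes that SREBP-2 controls outside the pathway moved the same way where they passed. Stard4, a sterol carrier, read 8.75, 8.95 and 9.25 in obese FXR-WT livers, against 10.52 and 10.52 in lean FXR-WT livers, which is 2.90-fold lower (adjusted p = 0.00372), and Srebf2, the gene of SREBP-2 itself, was 2.23-fold lower (adjusted p = 0.0428), with its other probe at -0.52. Insig1, which retains SREBP in the endoplasmic reticulum, changed by -1.16 ± 0.26 on its brightest probe (adjusted p = 0.0626). Its other probes gave larger falls, of -2.12 and -2.11, and both passed when every probe was tested singly (limma adjusted p = 0.00161 for each), so the call of Insig1 depends on the probe. Insig2, its partner, changed by 0.69 (adjusted p = 0.357). With the brightest probe of each gene, 3 of the 8 tested genes of this list fell and 0 rose. Sterol exporters did not pass: Abcg5 changed by 0.82 ± 0.21 (adjusted p = 0.104) and Abcg8 by 0.86 ± 0.40 (adjusted p = 0.384).

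The 14 sterol synthesis genes that fell all passed without obese FXR-WT replicate 1, 2 or 3, 13 passed without lean FXR-WT replicate 1 (Hsd17b7 was lost) and 11 without lean FXR-WT replicate 2 (Mvd, Tm7sf2 and Hsd17b7 were lost). Stard4 also missed the threshold without lean FXR-WT replicate 2, and Srebf2 missed it without any of the 5 arrays.

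Promoter sequence was read for the genes of the 2 sterol lists that fell, because they moved together and because SREBP acts at promoters with the help of the CCAAT-binding factor NF-Y. Of these 17 genes, 12 have an entry in the RefSeq promoter table of build GRCm38.p6, of which the 250 bases before the start site were searched on both strands. Shown are the 4 with the largest falls among them, each 5′ to 3′ on its own strand, with CCAAT or its reverse complement in capitals. Cyp51 lies at chr5:4104698-4104947 on the minus strand, Idi1 at chr13:8885356-8885605 on the plus strand, Msmo1 at chr8:64733579-64733828 on the minus strand and Nsdhl at chrX:72918271-72918520 on the plus strand.
Cyp51: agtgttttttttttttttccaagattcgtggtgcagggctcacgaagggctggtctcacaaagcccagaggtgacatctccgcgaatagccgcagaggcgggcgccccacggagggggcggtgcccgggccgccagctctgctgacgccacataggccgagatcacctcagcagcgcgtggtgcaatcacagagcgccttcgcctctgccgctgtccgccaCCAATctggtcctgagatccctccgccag
Idi1: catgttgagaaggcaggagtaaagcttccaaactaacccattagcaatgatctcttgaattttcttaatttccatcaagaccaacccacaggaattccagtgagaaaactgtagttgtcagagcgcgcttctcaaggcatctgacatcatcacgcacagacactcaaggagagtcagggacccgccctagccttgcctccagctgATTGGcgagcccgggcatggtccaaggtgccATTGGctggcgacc
Msmo1: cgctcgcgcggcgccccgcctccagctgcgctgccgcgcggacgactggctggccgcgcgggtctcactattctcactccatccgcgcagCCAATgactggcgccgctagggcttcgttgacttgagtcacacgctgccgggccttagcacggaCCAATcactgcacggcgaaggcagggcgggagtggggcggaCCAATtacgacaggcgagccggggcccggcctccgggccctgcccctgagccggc
Nsdhl: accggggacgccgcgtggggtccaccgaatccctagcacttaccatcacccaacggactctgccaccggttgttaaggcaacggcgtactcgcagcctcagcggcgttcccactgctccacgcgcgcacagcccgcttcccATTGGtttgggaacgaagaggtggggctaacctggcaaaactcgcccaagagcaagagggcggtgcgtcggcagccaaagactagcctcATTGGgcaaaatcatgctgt
The pentamer stands once in the Cyp51 stretch, 25 bases upstream of the start site, and 2 times in that of Idi1, 3 times in that of Msmo1 and 2 times in that of Nsdhl. It was present for 11 of the 12 genes (91.7%), all but Acat2. The share was 40.1% of the 9525 tested genes with an entry and 37.5% of all 27025 genes in the promoter table. A gene with several entries was counted if any of them matched. Among all genes that fell the pentamer was present for 33 of 56 with an entry (58.9%), and among those that rose for 30 of 68 (44.1%). A sterol response element in the form TCACNCCAC, searched as such, was present in 0 of the 12, against 1.31% of the tested genes. The GC box GGGCGG was present in 11 of the 12 (91.7%), against 60.8% of the tested genes. A match describes the letters in the stretch and is not a binding site. Sqle, Fdps and Stard4 are among the genes with no entry in the table.

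Outside the lists, some fallen genes are known for steps near sterol and acetyl-CoA metabolism; they were chosen after their values were seen. Rdh11, a retinol dehydrogenase, read 9.63, 9.54 and 9.50 in obese FXR-WT livers, against 11.39 and 11.56 in lean FXR-WT livers, which is 3.78-fold lower (adjusted p = 0.000111). Mmab, which shares a divergent promoter with Mvk and serves cobalamin metabolism, was 3.23-fold lower (adjusted p = 0.00111), with its other probes at -1.92, -0.90 and -0.85. Acss2, which activates acetate for lipid synthesis, changed by -1.12 ± 0.22 (adjusted p = 0.0426) with its other probe at -0.49, and Tmem97, a sterol-regulated endoplasmic reticulum protein, by -0.82 ± 0.14 (adjusted p = 0.0206). Acss2 missed the threshold without any single one of the 5 arrays. Tmem97 missed it without obese FXR-WT replicate 2 or either lean replicate.

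Lipid droplet genes were higher in obese FXR-WT livers. Of 15 droplet and PPAR-gamma genes tested, from a list of 18, 4 rose and 0 fell, and all 15 changes were positive, with a median of 0.69. Cidea, a droplet fusion protein that is abundant in brown fat, showed the largest rise of any gene. It read 10.79, 9.79 and 10.10 in obese FXR-WT livers, against 4.56 and 4.82 in lean FXR-WT livers, where neither array detected it. It was at least 32.8-fold higher in obese FXR-WT livers (adjusted p = 6.88e-05). Cidec, the droplet protein of white fat and fatty liver, read 11.52, 11.58 and 11.17 in obese FXR-WT livers, against 7.75 and 7.09 in lean FXR-WT livers, which is 16-fold higher (adjusted p = 6.88e-05). Both genes separate the groups by more than 3 units on every array. Adfp (now Plin2), the main perilipin of the hepatocyte, read 12.47, 12.41 and 12.37 in obese FXR-WT livers, against 11.23 and 10.80 in lean FXR-WT livers, which is 2.64-fold higher (adjusted p = 0.0025). S3-12 (now Plin4) read 10.17, 10.24 and 9.53 in obese FXR-WT livers, against 8.26 and 8.12 in lean FXR-WT livers, a change of 1.79 ± 0.34 (adjusted p = 0.0367). G0s2, which inhibits adipose triglyceride lipase, changed by 1.16 ± 0.28 and did not pass (adjusted p = 0.083). Pparg, the nuclear receptor that drives Cidea and Cidec in fatty liver, read 9.11, 9.74 and 10.52 in obese FXR-WT livers, against 9.60 and 9.40 in lean FXR-WT livers, so its groups overlapped (change 0.29 ± 0.38, adjusted p = 0.798). Cidea, Cidec and Adfp passed without any single one of the 5 arrays, while S3-12 missed the threshold without each of them, and the change of Pparg was -0.08 without obese FXR-WT replicate 3.

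**Figure D2:**
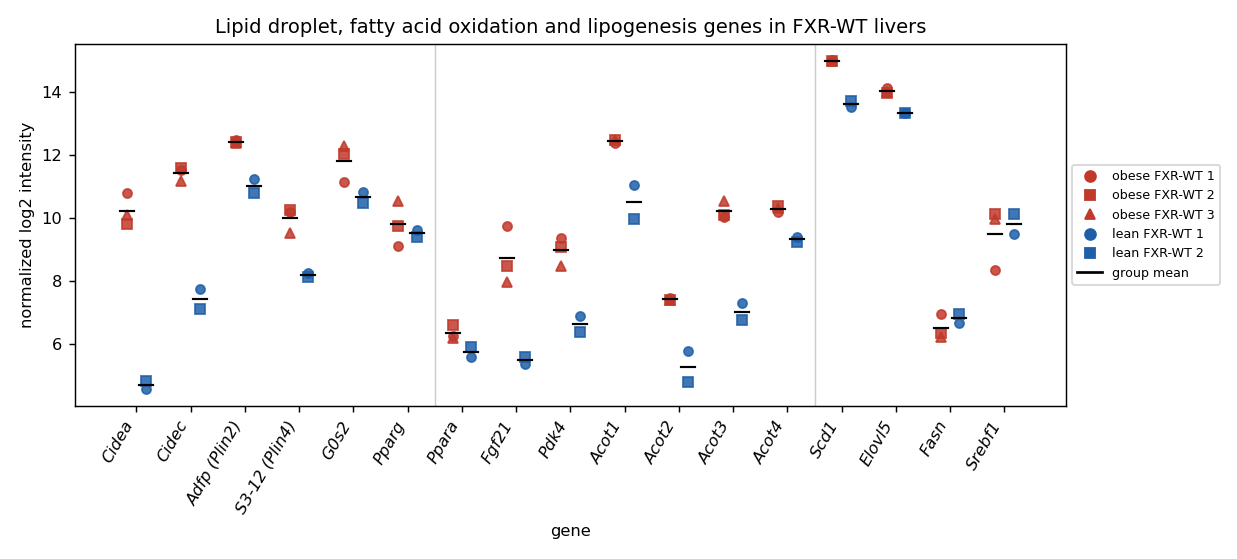
Normalized log2 intensity of lipid droplet genes (left), fatty acid oxidation and PPAR-alpha genes (middle) and fatty acid synthesis genes (right), with 1 point per array in obese FXR-WT livers (red, 3 arrays) and lean FXR-WT livers (blue, 2 arrays) and a bar at each group mean. Cidea lies between 9.79 and 10.79 on the obese arrays, against 4.56 and 4.82 on the lean ones, while the arrays of Pparg, Fasn and Srebf1 overlap.

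Genes that PPAR-alpha controls rose in part. Of 26 fatty acid oxidation and PPAR-alpha genes tested, 6 rose and 0 fell, with a median change of 0.48 and 22 positive changes. Fgf21, the liver hormone of fasting and lipid stress, read 9.74, 8.47 and 7.97 in obese FXR-WT livers, against 5.37 and 5.59 in lean FXR-WT livers, which is 9.49-fold higher (adjusted p = 0.018). Pdk4, which shuts glucose carbon out of the mitochondrion, read 9.36, 9.08 and 8.47 in obese FXR-WT livers, against 6.87 and 6.36 in lean FXR-WT livers, a change of 2.35 ± 0.47 (adjusted p = 0.0428). In both genes every obese array lies above both lean arrays. Of the 6 genes 3 are acyl-CoA thioesterases, which free fatty acids from coenzyme A. Acot3 read 10.03, 10.09 and 10.52 in obese FXR-WT livers, against 7.28 and 6.76 in lean FXR-WT livers, which is 9.13-fold higher (adjusted p = 0.00372). Acot1 was 3.82-fold higher (adjusted p = 0.00877), with its other probe at 1.95, and Acot2 was 4.37-fold higher (adjusted p = 0.00467), but another Acot2 probe changed by -0.27. Acot4 and Acot11, outside the list and chosen after their values were seen, rose by 0.97 and 1.08 (adjusted p = 0.0438 and 0.0186). Acot1 to Acot4 are closely related neighbours on one chromosome, so a probe may read more than one of them. Ppara itself changed by 0.60 ± 0.19 (adjusted p = 0.202), and enzymes of the oxidation spiral did not pass, among them Acadm at 0.25 and Ehhadh at 0.92 (adjusted p = 0.41 and 0.30). Acot1 and Acot2 passed without any of the 5 arrays and Acot3 without 4 of them, missing the threshold without lean FXR-WT replicate 2. Fgf21 missed it without obese FXR-WT replicate 2 or either lean replicate, and Pdk4 and Acot4 without any of the 5. Acot11 missed it without obese FXR-WT replicate 2 or 3 or lean FXR-WT replicate 2.

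Of 18 fatty acid synthesis genes tested, 2 rose and 0 fell, and the median change was -0.0058. Scd1, the desaturase that makes oleate, read 14.99, 14.97 and 14.98 in obese FXR-WT livers, against 13.52 and 13.70 in lean FXR-WT livers, which is 2.58-fold higher (adjusted p = 0.00241). Elovl5, an elongase of unsaturated fatty acids, was 1.61-fold higher (adjusted p = 0.0315). Fasn, the fatty acid synthase, read 6.95, 6.34 and 6.22 in obese FXR-WT livers, against 6.67 and 6.96 in lean FXR-WT livers, and its groups overlapped (adjusted p = 0.721). Acly, which makes cytosolic acetyl-CoA, changed by -0.77 ± 0.19 (adjusted p = 0.083). Srebf1, which encodes the SREBP of fatty acid synthesis, read 8.34, 10.12 and 9.96 in obese FXR-WT livers, against 9.48 and 10.12 in lean FXR-WT livers, so that obese replicate 1 lies below the rest (change -0.32, and 0.24 without that array, adjusted p = 0.849 and 0.83). Pck1, the gluconeogenic carboxykinase, changed by -0.41 ± 0.62 (adjusted p = 0.832). Scd1 passed without any of the 5 arrays, and Elovl5 missed the threshold without each of them.

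**Figure D3:**
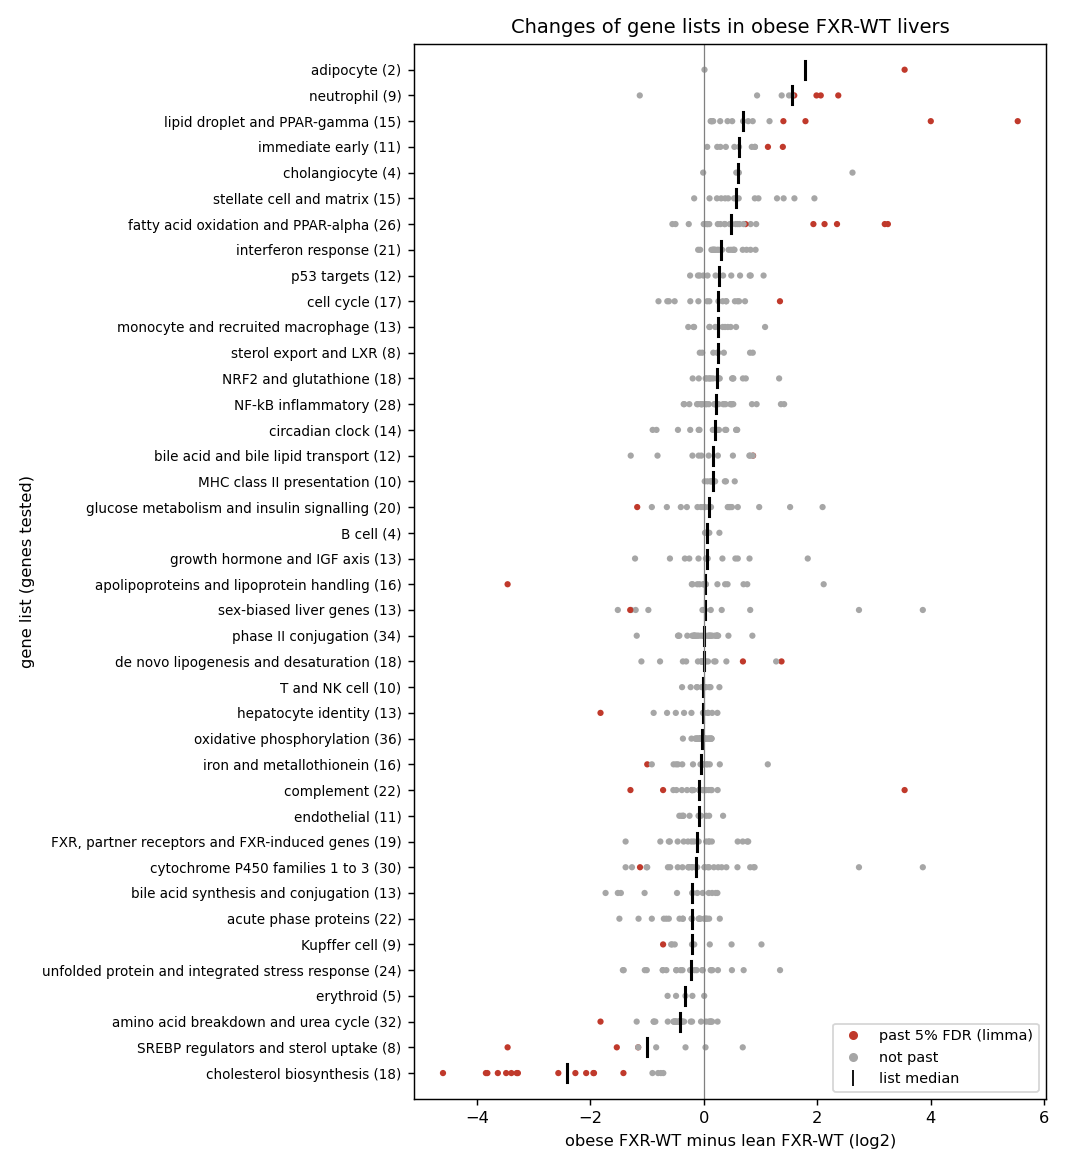
Change in obese FXR-WT minus lean FXR-WT livers (log2, horizontal axis) of each tested member of the 40 gene lists (rows, with the number tested in brackets), with members past 5% FDR in red, the others in grey and a black bar at the list median. The cholesterol synthesis row lies apart at the bottom, with a median of -2.42, and the neutrophil and lipid droplet rows lie near the top with medians of 1.56 and 0.69.

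Transcripts of neutrophils were higher in obese FXR-WT livers. Of 9 neutrophil genes tested, from a list of 13, 4 rose and 0 fell, and the median change was 1.56. The summed linear intensity of the 9 genes lay between 11113 and 14628 in the obese FXR-WT arrays, against 5321 and 5524 in the lean ones. Ltf, the granule protein lactoferrin, read 9.10, 9.21 and 10.08 in obese FXR-WT livers, against 7.34 and 7.62 in lean FXR-WT livers, which is 3.96-fold higher (adjusted p = 0.0111). Ngp, a granule protein of maturing neutrophils, read 7.89, 7.88 and 8.59 in obese FXR-WT livers, against 5.61 and 5.89 in lean FXR-WT livers, which is 5.17-fold higher (adjusted p = 0.00463). Camp, the antimicrobial cathelicidin, was 4.18-fold higher (adjusted p = 0.0303). For each of these granule genes the lowest obese array lies above both lean arrays. S100a9, a calprotectin subunit of neutrophils and monocytes, read 11.36, 11.49 and 11.96 in obese FXR-WT livers, against 10.08 and 9.94 in lean FXR-WT livers, which is 3.02-fold higher (adjusted p = 0.0176). Its partner S100a8 changed by 1.37 ± 0.30 (adjusted p = 0.0626), Mpo, the myeloperoxidase, by 1.5 ± 0.38 (adjusted p = 0.0951) and Retnlg by 1.56 ± 0.44 (adjusted p = 0.141). Prtn3, a granule serine protease, had the list's only negative change, at -1.13 ± 0.84 (adjusted p = 0.612). Ctsg, another granule protease, is outside the list and was chosen after its values were seen; it was detected on 3 of 3 obese arrays and on neither lean array and was at least 2.16-fold higher (adjusted p = 0.047).

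Of the 4 neutrophil genes that rose, the number called moved with the arrays: 4 genes passed without obese FXR-WT replicate 1, 2 without obese replicate 2, 2 without obese replicate 3, 0 without lean replicate 1 and 1 without lean replicate 2, although the median change stayed between 1.42 and 1.69 throughout. Ctsg missed the threshold without any array but obese FXR-WT replicate 3. The part of neutrophil number in the tissue was not tested.

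The other immune marker lists gave 1 call. Kupffer cell genes had summed intensities of 21940 to 28948 in the obese FXR-WT arrays, against 28381 and 29077 in the lean ones. Of the 9 tested, 1 fell and 0 rose: C6, which is also a complement component, was 1.65-fold lower (adjusted p = 0.018), and it missed the threshold without any array but obese FXR-WT replicate 1. Of the 9 changes 6 were negative and 3 positive. Marco changed by 1.02 ± 0.82 (limma adjusted p = 0.642) without overlap of its groups. Timd4, undetected on both lean arrays, was at least 1.28-fold higher (limma adjusted p = 0.548). Marco and Timd4 were chosen after their values were seen. Clec4f, the defining Kupffer cell lectin, read 11.08, 9.83 and 10.56 in obese FXR-WT livers, against 10.68 and 10.64 in lean FXR-WT livers. No gene passed in either direction among 13 monocyte and macrophage, 10 T and NK cell, 4 B cell, 10 MHC class II and 21 interferon genes tested. The same held for 28 NF-kB inflammatory genes, whose median change was 0.21. Tnf read 5.37, 5.82 and 5.72 in obese FXR-WT livers, against 5.67 and 5.71 in lean FXR-WT livers (adjusted p = 0.956). Il1b changed by 0.47 ± 0.43 (adjusted p = 0.694). Ccl2, the monocyte chemokine, read 6.47, 7.08 and 6.73 in obese FXR-WT livers, against 5.84 and 4.95 in lean FXR-WT livers, which do not overlap, and did not pass (change 1.36 ± 0.39, adjusted p = 0.151). Of 22 acute phase genes 0 passed, among them Saa1 at -0.22 ± 0.18 (-1.64 on its other probe) and Lcn2 at -0.08 ± 0.35 (adjusted p = 0.661 and 0.947). With 3 arrays against 2, a missed threshold does not show that these genes were equal.

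**Figure D4:**
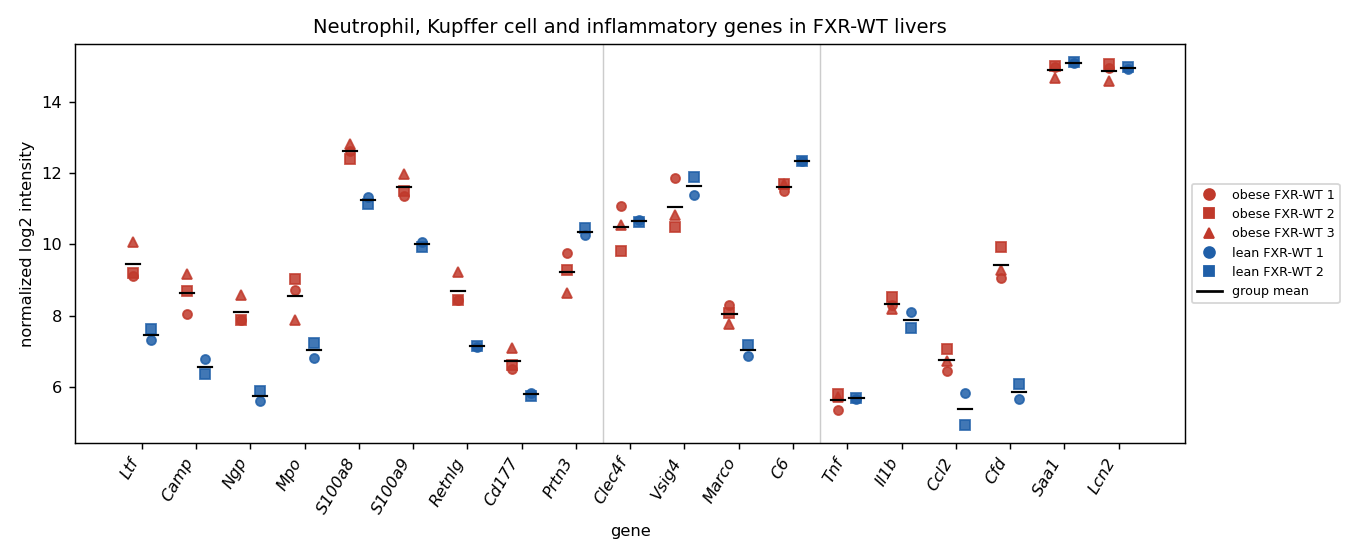
Normalized log2 intensity of 9 neutrophil genes (left of the first line), 4 Kupffer cell genes (between the lines) and 6 inflammatory or secreted genes (right), with 1 point per array in obese FXR-WT livers (red, 3 arrays) and lean FXR-WT livers (blue, 2 arrays) and a bar at each group mean. All neutrophil genes but Prtn3 lie higher on each obese array than on both lean arrays, while Clec4f, Vsig4, Tnf and Lcn2 overlap.

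Cfd, the complement protease adipsin, rose with few other fat-cell genes to set beside it. It read 9.06, 9.93 and 9.27 in obese FXR-WT livers, against 5.68 and 6.08 in lean FXR-WT livers, which is 11.6-fold higher (adjusted p = 0.0193). Of 7 adipocyte genes on the array, Adipoq, Retn, Lep, Plin1 and Fabp4 did not pass the detection filter, and Pnpla3 changed by 0.01. Cfd missed the threshold without any array but obese FXR-WT replicate 1.

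FXR itself and the 13 bile acid synthesis genes tested gave no call. Nr1h4, the gene of FXR, whose probe may read the adenoviral transcript as well as the mouse's own, read 11.98, 12.09 and 12.30 in obese FXR-WT livers, against 12.23 and 12.37 in lean FXR-WT livers (change -0.18 ± 0.15, adjusted p = 0.663). Nr0b2, the FXR target SHP, did not pass the detection filter and gave no value. None of 19 tested FXR partners and FXR-induced genes passed; Apoc2, the cofactor of lipoprotein lipase, came closest at 0.77 ± 0.17 (adjusted p = 0.0619). Cyp7a1, the cholesterol 7-alpha-hydroxylase that opens bile acid synthesis, read 8.88, 12.16 and 11.81 in obese FXR-WT livers, against 12.23 and 12.60 in lean FXR-WT livers. Cyp8b1, which makes cholic acid, read 7.71, 12.39 and 12.75 in obese FXR-WT livers, against 12.18 and 13.19 in lean FXR-WT livers. In both genes obese replicate 1, the array that stood apart, is low by itself, and without it their changes were -0.43 and -0.11, in place of -1.46 and -1.73 (adjusted p = 0.52 and 0.595 with it). Cyp7b1, of the alternative pathway, read 10.15, 11.80 and 11.84 in obese FXR-WT livers, against 12.73 and 12.84 in lean FXR-WT livers, and its change of -1.52 (adjusted p = 0.129) became -0.96 with an adjusted p of 0.0381 without that array. Of 12 bile acid and bile lipid transporters tested, Abcb4, the phospholipid floppase of the canalicular membrane, rose by 0.87 ± 0.16 (adjusted p = 0.0308), though not without any one of the 5 arrays. The bile salt export pump Abcb11 changed by -0.20 ± 0.26 and the uptake carrier Slc10a1 by -0.82 ± 0.28 (adjusted p = 0.797 and 0.23).

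Among the other large rises were genes of varied roles. Serpina12, the adipokine vaspin, read 12.55, 12.99 and 13.05 in obese FXR-WT livers, against 10.65 and 10.54 in lean FXR-WT livers, which is 4.81-fold higher (adjusted p = 0.000386), with its other probe at 1.51. Ntrk2, the receptor of brain-derived neurotrophic factor, was 5.28-fold higher (adjusted p = 0.0219). Slc25a30, a mitochondrial carrier, was detected on 3 of 3 obese arrays and neither lean array and was at least 3.68-fold higher (adjusted p = 0.00241). Sdcbp2, a PDZ-domain scaffold, was 4.68-fold higher (adjusted p = 0.0236), a change of 2.23, with its other probes at 1.06 and 1.81. Histone H4 genes also rose, Hist1h4h by 2.30 ± 0.44 and Hist1h4m by 2.22 ± 0.44 (adjusted p = 0.0369 and 0.0428), with the other Hist1h4m probe at 1.12; their sequences are near-identical, so which copies the probes read is uncertain. Ccnd1, the cyclin of the G1 phase, was 2.54-fold higher (adjusted p = 0.0427) and was the only one of 17 tested cell cycle genes to pass. Of 11 tested immediate early genes, Egr1 rose by 1.39 ± 0.26 (adjusted p = 0.0315), and Fosb, detected on 3 of 3 obese arrays and neither lean array, was at least 1.45-fold higher (adjusted p = 0.047). All 11 changes were positive, with a median of 0.62, or 0.54 with Fosb at its bound. Serpina12 and Slc25a30 passed without any of the 5 arrays. Ntrk2, Sdcbp2, Fosb and both histone genes missed the threshold without each array but obese FXR-WT replicate 1, Egr1 without obese replicate 1 or 2 or lean replicate 2, and Ccnd1 without any of the 5.

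The remaining large falls belong to no one pathway. Tff3, a trefoil peptide, read 6.31, 6.40 and 6.45 in obese FXR-WT livers, against 8.34 and 8.51 in lean FXR-WT livers, which is 4.10-fold lower (adjusted p = 0.0271). Chrna4, a nicotinic receptor subunit, was detected on 0 of 3 obese arrays and on both lean arrays, and was at least 3.24-fold lower (adjusted p = 0.00423). Adam32, a testis-type disintegrin, was 5.07-fold lower (adjusted p = 0.00767). Tat, the tyrosine aminotransferase that glucocorticoids induce, read 5.69, 5.10 and 4.59 in obese FXR-WT livers, against 6.58 and 7.33 in lean FXR-WT livers, which is 3.54-fold lower (adjusted p = 0.0288), with 1 of 3 obese arrays above detection. Tfrc, the transferrin receptor, was 2.00-fold lower (adjusted p = 0.0219), C8b, a subunit of the complement attack complex, 2.45-fold lower (adjusted p = 0.0391) and Ppp1r3c, which targets protein phosphatase 1 to glycogen, 2.26-fold lower (adjusted p = 0.036). Chrna4 and Adam32 missed the threshold only without lean FXR-WT replicate 1. Tat and C8b missed it without each array but obese replicate 1, Tfrc without obese replicate 2 or either lean replicate, and Tff3 and Ppp1r3c without any of the 5.

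The obese and lean mice with mutant FXR share no array with the FXR-WT comparison, so the same genes were set side by side there. Obesity (with its diet) and mutant change together in that contrast, since the obese mice carried FXR-K217R and the lean ones FXR-K217Q, and they cannot be told apart. There 76 genes passed (0.491%), 40 higher (0.259%) and 36 lower (0.233%) in obese FXR-K217R livers. Of the 185 genes called with FXR-WT, 54 were also called there (29.2% of the 185 and 71.1% of the 76), 24 higher and 30 lower, and 0 in opposite directions. Of the 106 genes that rose with FXR-WT, 100 had positive changes with the mutants, and of the 79 that fell, 76 had negative ones. Over all 15469 genes tested, 7927 changes with the mutants were positive and 7542 negative. Across all genes the changes correlated with r = 0.617 (rho = 0.478), a description across genes, which are not independent replicates.

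The sterol genes were lower in both, with smaller changes in the mutants. For Sqle the change was -4.60 with FXR-WT and -4.15 with the mutants, for Cyp51 -3.84 and -2.84 and for Dhcr7 -2.27 and -1.03. With the mutants 10 of the 18 sterol genes fell, and all 18 changes were closer to 0 than with FXR-WT. In the test of the difference itself, none of the 15469 genes passed 5% FDR in limma (0%), 728 had an unadjusted p under 0.05, and the lowest adjusted p among the sterol genes was 0.708. Cidec changed by 4.0 with FXR-WT and 2.46 with the mutants, and it passed in both comparisons, as did Cidea (adjusted p = 6.88e-05 with FXR-WT and 7.65e-05 with the mutants), for which only a bound on the change with FXR-WT is known. Cidea averaged 4.69 in the lean FXR-WT and in the lean FXR-K217Q livers, so the size of its change with the mutants is limited likewise. Fgf21 changed by 3.25 and 1.30, Pdk4 by 2.35 and 1.28 and Acot3 by 3.19 and 1.97, of which Acot3 alone also passed with the mutants (adjusted p = 0.0392).

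Neutrophil genes had no call in the test of the difference. S100a9 changed by 1.59 with FXR-WT and -1.16 with the mutants, a difference of 2.75 and the smallest adjusted p of all genes (0.122). S100a8 changed by 1.37 and -0.76, Retnlg by 1.56 and -0.76, Ngp by 2.37 and 0.41 and Camp by 2.06 and 0.61. In the obese and lean mutant groups Ngp averaged 5.25 and 4.84, against 8.12 and 5.75 in the obese and lean FXR-WT groups. Camp averaged 5.62 and 5.01, against 8.64 and 6.58. S100a9 averaged 9.04 and 10.20, against 11.60 and 10.01, so its lean mutant mean was not lower. Signals as near background as those of Ngp and Camp in the mutants limit the size of a change. None of the 9 neutrophil genes passed with the mutants, and their median change there was -0.19.

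**Figure D5:**
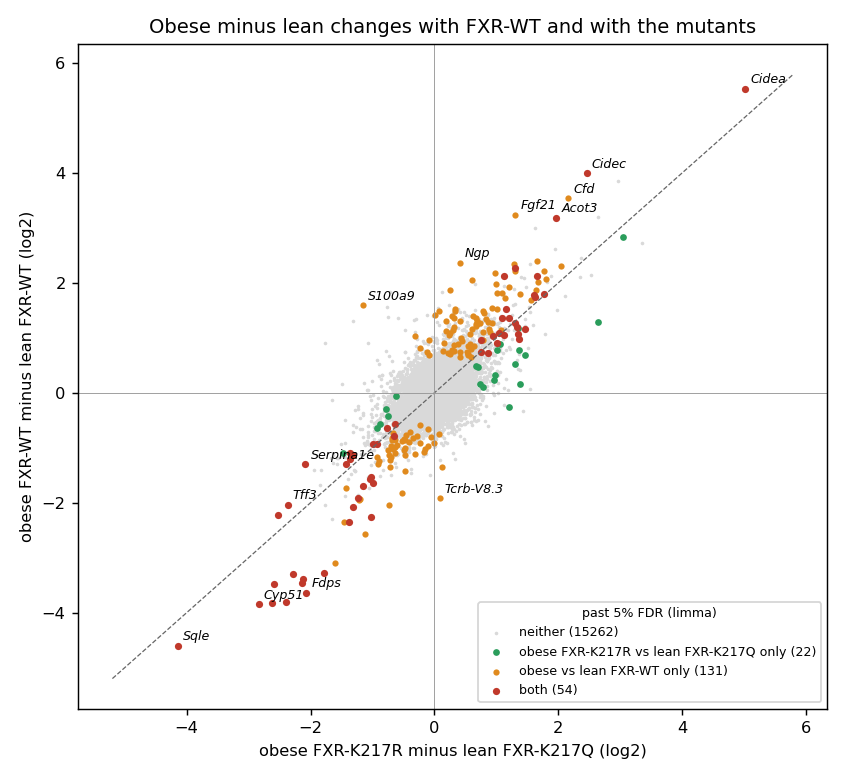
Change of each of 15469 genes in obese FXR-WT minus lean FXR-WT livers (log2, vertical axis) against obese FXR-K217R minus lean FXR-K217Q livers (log2, horizontal axis), coloured by which comparison passed 5% FDR, with the dashed line marking equal changes. The 54 genes called in both lie in the upper right and lower left, among them Sqle at -4.60 and -4.15 and Cidec at 4.0 and 2.46; Cidea is the point farthest to the upper right, drawn at its measured signal although neither lean FXR-WT array detected it, and S100a9 lies above 0 on the vertical axis and below 0 on the horizontal one.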

How the data were processed

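The authors deposited non-normalized mean bead intensity per probe and array with a detection p-value and a bead count, per the file headers. They also deposited normalized log2 values; limma 3.12.3 is the tool named in the submitters' processing notes, and further settings are not given in the sources used here. Per the labels, biotin-labelled cRNA was hybridised to Illumina BeadChips.

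From the intensities, background was corrected (normexp with parameters drawn from the detection p-values) and arrays quantile-normalized by the neqc function (limma 3.58.1, R 4.3.3; offset 16). Probes with detection p under 0.05 on at least 2 of 11 arrays were kept (21485), and the brightest probe stood for each symbol, giving 15469 genes, 4795 with clone or locus symbols only. The computed log2 values differ from those the authors deposited by 0.0271 at most. One limma model (lmFit, eBayes) with 4 group means was fitted over all 11 arrays without a replicate block. Tests are two-sided with Benjamini-Hochberg adjustment over all genes. A fold is given as a bound if a gene was undetected throughout 1 group: on each array there the higher of the dimmest detected signal and the gene's own signal was used. In simulated data of 15469 genes, 200 were changed. The procedure recovered 62% of genes changed by 1 on the log2 scale and 90% of those changed by 2, with 7 false calls. These rates describe the simulated data and were not measured on the arrays themselves.

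Members, gene lists (40 lists, 690 members, 598 tested) and tests were chosen with earlier results of these data known. Named genes are the 15 largest rises and 15 largest falls among called genes whose groups do not overlap, fixed metabolic, FXR, clock and inflammatory genes, and up to 4 called members per list, or 2 with the smallest p where none passed. Exceptions are said to be chosen after their values were seen, or complete a list. Symbols are those of the array design, matched by name to the GRCm38.p6 gene table, where 9785 are current and 2920 match through a synonym. Another probe of a named gene was tested in 79 cases, of which 2 pointed the other way, 1 being for Acot2, which was called. Some genes of the lists are counted but not reported here by name. Levels of different genes come from different probes and were not compared. The number of arrays limits the precision. Alternatives were the authors' values, other filters and probe rules, other variance settings, a replicate block and single arrays left out.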

Additional observations from a re-analysis of the deposited data

How the results depend on the processing

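Against 185 genes past 5% FDR for obese FXR-WT minus lean FXR-WT (106 higher, 79 lower), the authors' deposited normalized values gave 184, no background correction 234, and moderation with trend and robust settings 257. A fit on the 5 arrays alone gave 110 (66 higher, 44 lower), array weights gave 514 (313 higher, 201 lower), and leaving out single arrays gave 36 to 283, with 12 to 160 higher and 24 to 123 lower. The lowest count came without lean FXR-WT replicate 2 and the highest with lean FXR-K217Q replicate 3 left out. It was 60 without lean FXR-WT replicate 1, 52 without obese FXR-WT replicate 2, and 62 when obese FXR-WT replicate 3 was dropped. The cause was not tested. All 185 kept their direction under each of the 12 settings where this was counted, for the 150 of them that could be measured when detection on every array was required. For each of the 185 the obese and lean FXR-WT arrays do not overlap, so leaving out or reweighting arrays could not have turned a direction. The kept directions are therefore no measure of how firm the calls are. Replicate numbers were not treated as pairs in the main fit. Same-numbered obese and lean FXR-WT arrays deviated from their group means with correlations of -0.107 and -0.0445. The deviations of the 2 lean arrays mirror each other, so these correlations cannot exclude a pairing. With the replicate block 102 genes passed, 54 higher and 48 lower. For obese FXR-K217R minus lean FXR-K217Q, 76 genes became 29 in a fit on those arrays alone, 122 with trend and robust settings, and 29 to 124 with single arrays left out. The test of the difference, with 0 genes, had 1 (S100a9, adjusted p = 0.0456) with trend and robust settings. Signs turned for genes that passed in neither setting: Tnf was 0.014 with array weights and 0.018 with the replicate block. With single arrays left out, Tnf lay between -0.15 (without obese FXR-WT replicate 2) and 0.077 (without obese replicate 1), Srebf1 between -0.65 and 0.24 (likewise), Pparg between -0.078 (without obese replicate 3) and 0.63, Cd79b between -0.086 (likewise) and 0.34, and Lcn2 between -0.18 and 0.055 (without obese replicate 3). Of 69 called genes described, 24 passed without any single one of the 5 arrays and 10 missed the threshold without each of them. Signals near background, as for Mvk or Fosb, limit the size of a change more than its direction.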

Other observations

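Among 15 tested genes of stellate cells and matrix 0 passed in limma, while 14 of 15 changes were positive, with a median of 0.57. Col1a1, the main fibrillar collagen, read 9.35, 9.55 and 10.16 in obese FXR-WT livers, against 8.24 and 7.23 in lean FXR-WT livers (change 1.95 ± 0.50, adjusted p = 0.106). Timp1, a metalloproteinase inhibitor, changed by 1.60 ± 0.48 (adjusted p = 0.167). Krt23, a keratin of stressed liver, read 7.63, 9.59 and 9.81 in obese FXR-WT livers, against 6.77 and 6.00 in lean FXR-WT livers, without passing (adjusted p = 0.261). Of 32 amino acid breakdown and urea cycle genes 1 fell (Tat) and 25 had negative changes, with a median of -0.43. Cps1, the first enzyme of the urea cycle, changed by -0.89 ± 0.25 (adjusted p = 0.141).

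Of 13 sex-biased liver genes tested, 0 rose and 1 fell, with a median change of 0.014, and their summed linear intensity lay between 114039 and 123735 in the obese FXR-WT arrays, against 133778 and 142210 in the lean ones. The list mixes male-biased and female-biased genes, so its median and sum do not describe a shift of either kind. Its changes ranged from -1.52 to 3.86. Cyp2b9, a female-biased cytochrome, read 8.12, 11.32 and 11.83 in obese FXR-WT livers, against 7.16 and 5.96 in lean FXR-WT livers (change 3.86 ± 1.11, adjusted p = 0.147). Serpina1e, a male-biased antitrypsin that belongs to a family of near-identical copies, was 2.46-fold lower (adjusted p = 0.047), and missed the threshold without each array of the comparison but obese FXR-WT replicate 1. Apoa4, an apolipoprotein that rises in fatty liver, read 14.80, 14.27 and 13.83 in obese FXR-WT livers, against 12.23 and 12.14 in lean FXR-WT livers (change 2.11 ± 0.51, adjusted p = 0.0859). Cyp2b9 and Apoa4 were chosen after their values were seen.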
